A study of Arabidopsis thaliana with 2 samples.

Results

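The genes described here are 10 genes of sulfate assimilation and of the response to sulfur deficiency in *Arabidopsis thaliana*, out of the 33602 genes in the expression table. They were taken by locus, with the model suffix dropped, and every one had a row and reads in both libraries. The members are the sulfate transporter gene *SULTR2;1* (AT5G10180), the ATP sulfurylase gene *ATPS1* (AT3G22890), the adenosine 5′-phosphosulfate (APS) reductase genes *APR1* (AT4G04610), *APR2* (AT1G62180) and *APR3* (AT4G21990), the APS kinase genes *APK1* (AT2G14750) and *APK2* (AT4G39940), and the sulfur deficiency genes *LSU1* (AT3G49580), *LSU2* (AT5G24660) and *SDI1* (AT5G48850). The 35S:SsCBF1-11 plants belong to 1 homozygous transgenic line (line 11) in the Col-0 background, in which the CaMV 35S promoter drives *SsCBF1*, a cold-response transcription factor gene from the wild nightshade *Solanum lycopersicoides*. The reference plants were untransformed Col-0. Both genotypes were grown side by side without stress at 22°C under days of 16 h light and nights of 8 h, and aerial parts of 20 plants per genotype, at 4 weeks of age, were pooled into 1 RNA-seq library. No difference between the genotypes therefore has a replicate check, and 1 transgenic line stands for the transgene.

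Plants take up sulfate through transporters of the SULTR family and activate it to APS with ATP sulfurylase. From APS the pathway forks. APS reductase leads, through sulfite and sulfide, to cysteine and glutathione. APS kinase makes the sulfate donor 3′-phosphoadenosine 5′-phosphosulfate (PAPS), which is used, among others, to sulfate glucosinolates, the sulfur-rich defense compounds of leaves in this family of plants. When sulfur runs short, *APR* genes, the *LSU* genes and *SDI1* are known to rise in Arabidopsis. The microRNA miR395 then accumulates and acts on transcripts of ATP sulfurylases and *SULTR2;1*.

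None of the 10 genes reached a 1.5-fold difference between the libraries. In 35S:SsCBF1-11 the 10 genes had 10059 of 6669454 reads assigned to genes, against 13758 of 9120358 in Col-0. That is 1508 per 1000000 such reads in each. Their ratios of 35S:SsCBF1-11 over Col-0 lay between 0.802 for *LSU1* and 1.18 for *APK2*. Most reads of the 10 genes were those of *ATPS1* and *APR2*, whose ratios lay on opposite sides of 1. The *APR* genes, *SULTR2;1*, the *LSU* genes and *SDI1* stood at ratios below 1, *ATPS1* and *APK2* above 1, and *APK1* at 1.003.

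The miR395 sites are shown first, because they set *ATPS1* and *SULTR2;1* apart from the other members at the level of sequence. RefSeq's TAIR10.1 annotation places 6 *MIR395* genes on chromosome 1, and their mature sequences, read from the genome, come in 2 forms with 1 shared seed. The seed, bases 2 to 8, is in capitals, and miR395d and miR395e are identical to miR395a, miR395c and miR395f to miR395b.
miR395a (chr1:9363206-9363226, minus strand): cUGAAGUGuuugggggaacuc
miR395b (chr1:9364540-9364560, plus strand): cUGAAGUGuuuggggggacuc
Each transcript was scanned for the stretch that pairs best with either form, without gaps, counting 1 for a mismatch and 0.5 for a G:U pair. The following mRNA stretches of the genes described here scored at most 2.5, with the bases opposite the seed in capitals.
*ATPS1* (chr3:8113164-8113184, plus strand): gaguuccuccaaaCUCUUCAu
*ATPS3* (chr4:8414958-8414978, minus strand): gaguuccuccaaaCUCUUCAu
*ATPS4* (chr5:17591121-17591141, minus strand): gaguuccuccaaaCACUUCAu
*SULTR2;1* (chr5:3193268-3193288, plus strand): aaguucucccaaaCACUUCAa
All 4 stretches lie in exon 1 of their transcripts, within the coding sequence. *ATPS1*, *ATPS3* and *SULTR2;1* have 2 mismatches and 1 G:U pair, and *ATPS4* has 1 of each. Of 27444 protein-coding genes, 9 (0.0328%) hold a stretch at or below this score, and 4 of the 9 are the genes shown. The limit of 2.5 is itself the score of *ATPS1*, *ATPS3* and *SULTR2;1*, so this share is no independent measure of their rarity. Some genes outside the lists, such as *GUN5* at 2.0, pair better by this score. The best score of any other member was 6.5, in *APK2*, and *ATPS2* also had 6.5. The 6 *MIR395* genes had 0 reads in both libraries, which allows up to 3 reads each. The libraries were made from poly(A) RNA, so these counts do not measure the mature microRNA.

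The transport and activation genes are described first. *SULTR2;1* is a low-affinity transporter that moves sulfate within the vascular tissue. It had 333 reads (20.7 RPKM, reads per kilobase of the listed length and per 1000000 reads) in 35S:SsCBF1-11 and 526 reads (23.9 RPKM) in Col-0. The ratio was 0.866, with an exact 95% interval of 0.752 to 0.995 that covers counting error only, as do all intervals given here. The gene spans chromosome 5 from 3193017 to 3197136 in TAIR10.1, in 10 exons.

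*ATPS1*, the plastid ATP sulfurylase whose level is known to influence flux into the pathway, was the most abundant member. It had 4687 reads (398 RPKM) in 35S:SsCBF1-11 and 5668 reads (352 RPKM) in Col-0, and its RPKM exceeded that of 99.2% and 99.1% of the genes with reads in these libraries. The ratio was 1.13 (interval 1.09 to 1.18). The gene spans chromosome 3 from 8112614 to 8115024.

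The 3 APS reductase genes, which encode the plastid enzyme that commits sulfate to reduction, all had ratios below 1. *APR2*, the isoform that gives most of the enzyme activity in Arabidopsis leaves, had 2516 reads (214 RPKM) in 35S:SsCBF1-11 and 4067 reads (253 RPKM) in Col-0. Its ratio was 0.846 (0.805 to 0.889). *APR1* had 455 reads (38.8 RPKM) in 35S:SsCBF1-11 and 741 reads (46.2 RPKM) in Col-0, a ratio of 0.840 (0.746 to 0.945). *APR3* had 337 reads (28.3 RPKM) in 35S:SsCBF1-11 and 499 reads (30.7 RPKM) in Col-0. Its ratio of 0.924 had an interval (0.802 to 1.06) that includes 1. *APR1* lies on chromosome 4 from 2324878 to 2327064, *APR2* on chromosome 1 from 22975530 to 22977885 and *APR3* on chromosome 4 from 11657008 to 11659167.

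The APS kinase genes did not share that direction. *APK1* and *APK2* encode plastid enzymes that supply most of the PAPS for glucosinolates. *APK1* had 813 reads (102 RPKM) in 35S:SsCBF1-11 and 1108 reads (102 RPKM) in Col-0, and the interval of its ratio ran from 0.915 to 1.099. Its log2 ratio was near 0 and took the other sign when totals were formed without the 10 most abundant genes. *APK2* had 742 reads (89.4 RPKM) in 35S:SsCBF1-11 and 860 reads (75.8 RPKM) in Col-0, with a ratio of 1.18 (1.07 to 1.303). *APK1* spans chromosome 2 from 6313883 to 6316047 in 7 exons and *APK2* chromosome 4 from 18519599 to 18521605 in 6 exons.

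The sulfur deficiency genes were the least abundant members, apart from *LSU2*. *LSU1* and *LSU2* encode small coiled-coil proteins that interact with many partners. *LSU2* had 137 reads (36.9 RPKM) in 35S:SsCBF1-11 and 224 reads (44.2 RPKM) in Col-0, a ratio of 0.836 (0.671 to 1.04). *LSU1* had 17 reads (4.94 RPKM) in 35S:SsCBF1-11 and 29 reads (6.16 RPKM) in Col-0, and its interval of 0.413 to 1.51 takes in a fold of 2 in the lower direction. *SDI1* encodes a tetratricopeptide repeat protein that represses synthesis of aliphatic glucosinolates when sulfur is short. It had 22 reads (2.95 RPKM) in 35S:SsCBF1-11 and 36 reads (3.52 RPKM) in Col-0, with a ratio of 0.836 (0.468 to 1.46). For *LSU1* and *SDI1* a difference of this size was not detectable at this depth.

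**Figure D1:**
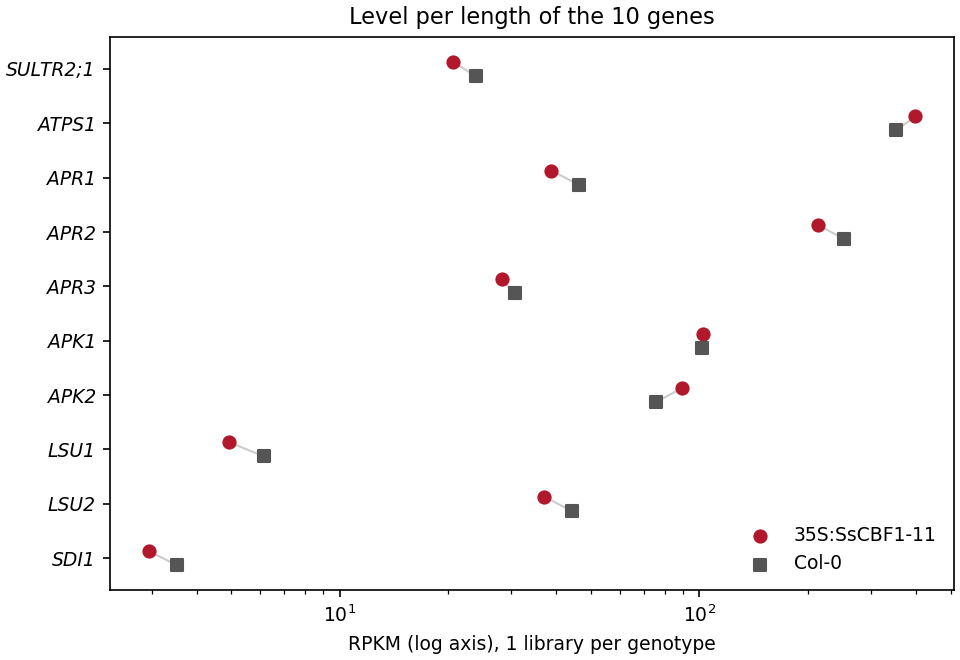
RPKM (log axis) of the 10 genes in the 35S:SsCBF1-11 library (circles) and the Col-0 library (squares), 1 library per genotype. *ATPS1* and *APR2* stand highest and *SDI1* lowest in both libraries, and the points of each gene lie close together.

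**Figure D2:**
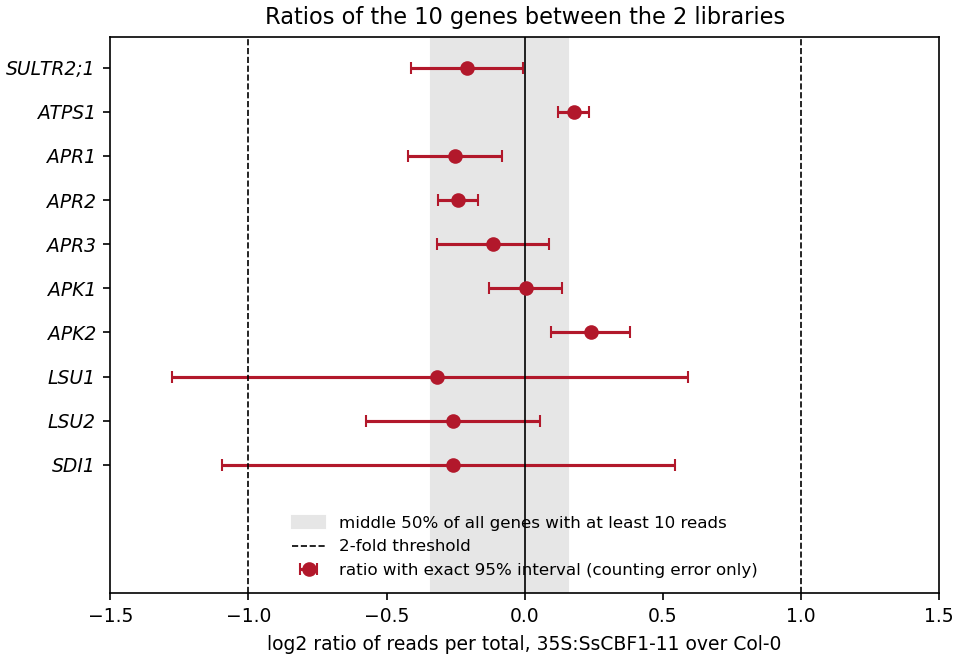
Log2 ratio of reads per total, 35S:SsCBF1-11 over Col-0, for the 10 genes, with exact 95% intervals for counting error. The shaded band is the middle 50% of all genes with at least 10 reads and the dashed lines mark a fold of 2. Only the intervals of *LSU1* and *SDI1* reach a dashed line.

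A two-sided exact binomial test set the reads of every gene against the shares of the library totals, with Benjamini-Hochberg adjustment over the 22319 genes that had reads. Calls used the thresholds of the study, a fold above 2 and an adjusted p below 0.001. The test speaks of these 2 libraries and not of the genotypes. Of the 10 members, 0 were called higher and 0 were called lower, where 0.533% of all tested genes were called higher and 0.838% lower (1.37% in all). Under an adjusted p of 0.001 with no fold threshold, *ATPS1* passed on the higher side (adjusted p = 2.5e-08, exact binomial test) and *APR2* on the lower side (adjusted p = 1.81e-09, exact binomial test), where 2.45% of all genes passed higher and 3.21% lower. At an adjusted p of 0.05, *APK2* (0.0118) joined the higher side and *APR1* (0.0321) the lower side, against 4.50% and 7.18% of all genes. With edgeR's TMM scaling the same test gave *APR1* an adjusted p of 0.177 and *APK2* one of 0.00048. The adjusted p of the other 6 members in the same exact binomial test lay between 0.208 (*SULTR2;1*) and 1 (*APK1*). At an unadjusted p under 0.05 there were 5 of the 10 members, and 21.2% of all tested genes (25.1% of those with at least 10 reads). Such shares depend on the number of reads, because smaller folds pass where reads are many. When a spread between pools was assumed in edgeR's exact test, at a coefficient of variation of 0.1, there were 0 members left even at an unadjusted p under 0.05, where 8.88% of all tested genes remained, and *APR2* then had an adjusted p of 0.965 and *ATPS1* one of 1.

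With 0.5 reads added, the median log2 ratio of the 10 genes was -0.22, beside -0.07 over the 18443 genes with at least 10 reads. All 10 were within 1.5-fold of equality, as were 80.8% of those genes. A ratio below 1 was found for 7 of the 10 members and for 58.6% of those genes, so that the direction of the 7 is also the commoner one in the table. The middle 50% of those genes had log2 ratios from -0.34 to 0.16. *ATPS1* and *APK2* lay above this range and the other 8 members within it.

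**Figure D3:**
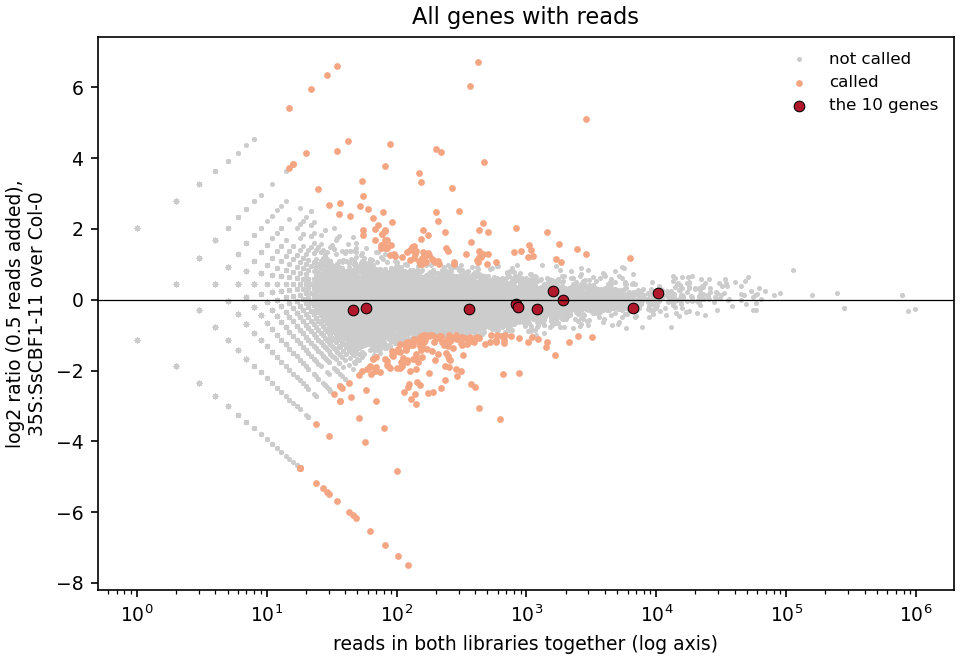
Log2 ratio (0.5 reads added), 35S:SsCBF1-11 over Col-0, against the reads of both libraries together (log axis), for the 22319 genes with reads. The 10 genes (large points) lie close to the zero line, between 46 and 10355 reads, away from the called genes.

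Ratios between 2 genes of the same library do not depend on how the libraries are scaled. The number of *APR2* reads relative to *ATPS1* reads was 0.748 times as large in 35S:SsCBF1-11 as in Col-0 (exact conditional 95% interval 0.702 to 0.797). In RPKM, *APR2* stood at 0.536 of *ATPS1* in 35S:SsCBF1-11 and at 0.717 in Col-0. *APR2* relative to *APK1*, the first enzymes of the 2 branches, gave 0.843 (0.759 to 0.936), and *APK1* relative to *APK2* gave 0.851 (0.742 to 0.974). The other 5 of the 8 ratios formed had intervals that include 1. Among these, *APR1* relative to *APR2* was 0.993 (0.872 to 1.13), and *SDI1* relative to *LSU2* was 0.999 (0.536 to 1.83). The intervals carry no variation between plants or pools, which cannot be measured here. How often other pairs of genes have an interval without 1 was not computed. Of single genes with at least 10 reads, 25.1% had an unadjusted p under 0.05 in the exact binomial test. The value for *APR2* relative to *ATPS1* restates their own ratios, 0.846 and 1.13, and is no further result.

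Within each family the same gene led in both libraries. *APR2* held 76.1% of the APS reductase RPKM in 35S:SsCBF1-11 and 76.7% in Col-0. *ATPS1* held 75.4% of the ATP sulfurylase RPKM in 35S:SsCBF1-11 and 75.7% in Col-0. *LSU2* held 75.9% of the *LSU* RPKM in 35S:SsCBF1-11 and 75.6% in Col-0. *APK1* held 50.1% of the APS kinase RPKM in 35S:SsCBF1-11 and 55.2% in Col-0. As shares of reads these are 49.8% (exact 95% interval 47.3 to 52.2) in 35S:SsCBF1-11 and 54.7% (52.5 to 56.9) in Col-0. These intervals, for counting error only, narrowly miss each other, and how often shares in other families do so was not computed. The ratio of *APK1* itself was 1.003, while *APK2* (1.18), *APK3* (1.54) and *APK4* (2.11) had ratios above 1. *SDI1* was the minor member of its pair, with 27.3% of the RPKM in 35S:SsCBF1-11 and 34.02% in Col-0, beside its paralog *SDI2*, and the intervals of the shares of reads overlap widely (17.2 to 36.9 in 35S:SsCBF1-11 and 24.1 to 42.3 in Col-0).

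**Figure D4:**
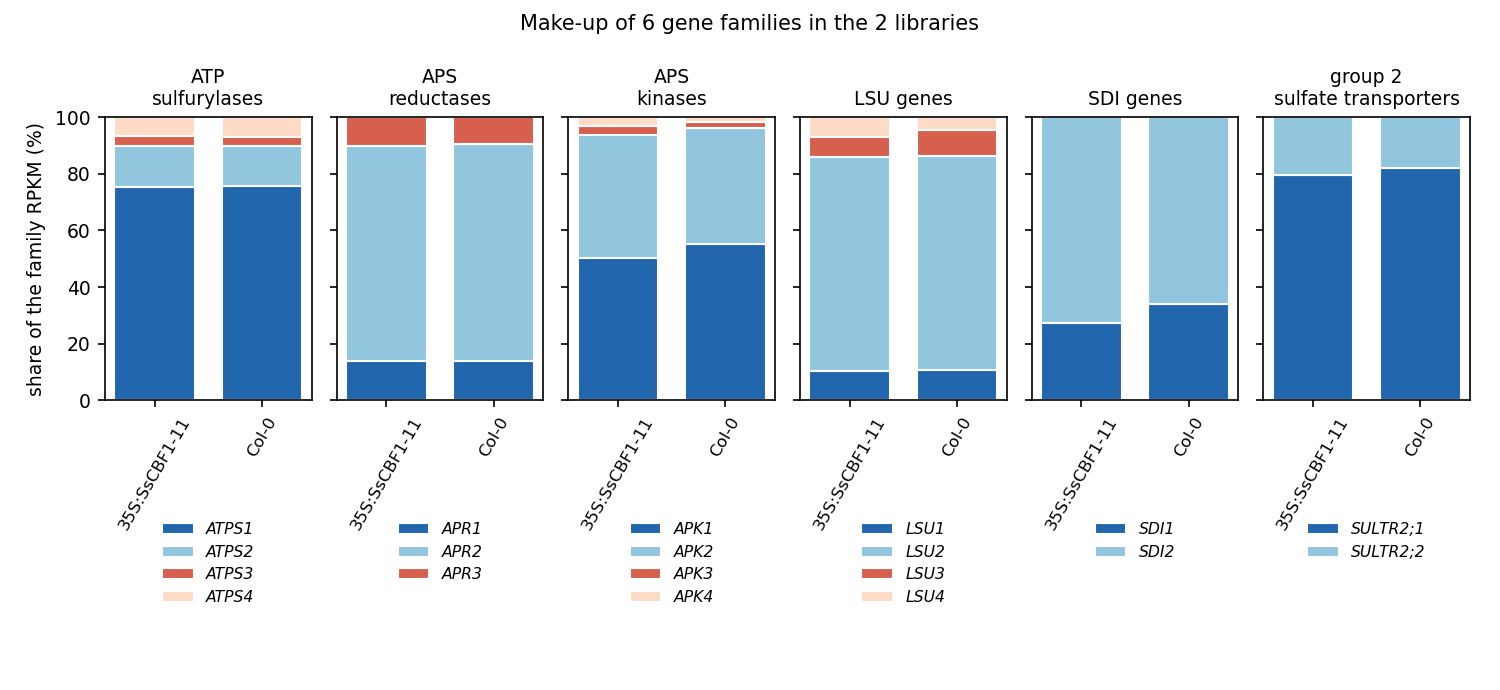
Share of each family's summed RPKM (%) held by its genes in the 35S:SsCBF1-11 library (left bar of each panel) and the Col-0 library (right bar), 1 library per genotype. *ATPS1*, *APR2* and *LSU2* hold about the same share in both bars. *APK1* holds a smaller one in 35S:SsCBF1-11, where its own ratio was 1.003 and the other kinase genes had ratios above 1.

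Identical stretches between paralogs were short. Over 18 pairs of a member with another gene of its family, the longest identical stretch of annotated transcripts ran from 9 to 50 bases. The longest was between *ATPS1* and *ATPS3*, followed by 41 bases between *APR1* and *APR3*, and by the study's methods the reads were longer. Stretches with mismatches were not searched and the aligner is not given, so reads placed on the wrong paralog were not tested. *LSU1* lies 1760 bases from *LSU3* and *LSU2* lies 1914 bases from *LSU4*, each pair on 1 strand with no gene between. By the labels the libraries were built from double-stranded cDNA with a kit that does not mark strand, so that reads of overlapping genes on opposite strands cannot be told apart, and 3 members have such an overlap. *APR2* shares 225 bases with AT1G62170, which had 12 reads in 35S:SsCBF1-11 and 38 in Col-0. *APR1* shares 21 bases with AT4G04614 and *APR3* 27 bases with *APG8A* (AT4G21980). *APR2* also shares 782 bases with the long noncoding RNA gene AT1G08477, which was not analysed here. The listed length equals that of the RefSeq transcript of the same name for only 1 member, *APR3*, and is shorter for the rest (*LSU2*, 556 against 823 bases, for example), so that RPKM values compare genes only under the table's own lengths.

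The wider pathway was followed in 56 other genes, of which 48 had reads. Of these, 0 were called higher and 0 lower, against the same 0.533% and 0.838% of all genes, and 15 had an unadjusted p under 0.05, beside 21.2% of all genes. Of the 46 with at least 10 reads, 25 had ratios above 1 and 21 below, with a median log2 ratio of 0.03. An adjusted p under 0.001 was reached by 3 of the 48 on the higher side and 1 on the lower side, beside 2.45% and 3.21% of all genes. The assumed spread of 0.1 in edgeR left 6 at an unadjusted p under 0.05, beside 8.88% of all genes, and 1, *SULTR3;1*, at an adjusted p under 0.05.

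Of the 4 genes past an adjusted p of 0.001, a transporter had the largest fold. *SULTR3;1*, a chloroplast sulfate transporter, had 374 reads (24.6 RPKM) in 35S:SsCBF1-11 and 989 reads (47.6 RPKM) in Col-0. Its ratio was 0.517 (0.458 to 0.583), with an adjusted p of 1.76e-27 (exact binomial test), and it fell just short of the fold threshold. At the assumed spread of 0.1 its adjusted p in edgeR's exact test was 0.00277, and at 0.2 it was 1. *SULTR2;2*, the other gene of group 2, had 77 reads in 35S:SsCBF1-11 and 104 in Col-0 (ratio 1.01, interval 0.744 to 1.37). The vacuolar export transporter *SULTR4;1* had 224 reads in 35S:SsCBF1-11 and 257 in Col-0 (1.19, 0.992 to 1.43), and its partner *SULTR4;2* had 14 and 39 reads in the same order (0.491, 0.246 to 0.924, adjusted p = 0.146 in the exact binomial test). Of the high-affinity uptake transporters of group 1, only *SULTR1;2* had more than 1 read, with 12 in 35S:SsCBF1-11 and 19 in Col-0. *SULTR3;3* had 329 reads in 35S:SsCBF1-11 and 451 in Col-0 (0.998, 0.863 to 1.15), and the other 3 genes of its group had between 3 and 77 reads per library with intervals that include 1.

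The other ATP sulfurylase genes and sulfite reductase all had ratios above 1, where 58.6% of genes with at least 10 reads had one below 1. The interval of *ATPS4* includes 1. *SIR*, the single sulfite reductase gene, had 2693 reads (183 RPKM) in 35S:SsCBF1-11 and 3320 reads (165 RPKM) in Col-0, with a ratio of 1.11 (1.05 to 1.17, adjusted p = 0.00119, exact binomial test). *ATPS2* had 911 reads in 35S:SsCBF1-11 and 1077 in Col-0 (1.16, 1.06 to 1.26). *ATPS3* had 201 and 212 reads in the same order (1.297, 1.06 to 1.58), and *ATPS4* had 406 and 513 (1.08, 0.948 to 1.24). Of the genes with a miR395 stretch, *ATPS1*, *ATPS3* and *ATPS4* lay between 1.08 and 1.297 and the transporter *SULTR2;1* at 0.866. *ATPS2*, with no stretch at that score, lay at 1.16. An effect of miR395 on these values was not tested. *ATPS2* overlaps *AVA-P2* on the other strand by 117 bases, with 904 reads of that gene in 35S:SsCBF1-11 and 1341 in Col-0.

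Downstream of sulfide, *OASA1* and *OASB*, the cytosolic and plastid O-acetylserine (thiol) lyases that make cysteine, passed the adjusted p of 0.001 on the higher side, but not 0.05 at the assumed spread of 0.1 in edgeR. *OASA1* had 1246 reads in 35S:SsCBF1-11 and 1329 in Col-0 (1.28, 1.19 to 1.39, adjusted p = 1.73e-08, exact binomial test). *OASB* had 1671 reads in 35S:SsCBF1-11 and 1863 in Col-0 (1.23, 1.15 to 1.31, adjusted p = 7.18e-08, exact binomial test). *CYSC1*, a mitochondrial enzyme that detoxifies cyanide with cysteine, had 3130 reads in 35S:SsCBF1-11 and 3788 in Col-0 (1.13, 1.08 to 1.19, adjusted p = 1.32e-05, exact binomial test), and it too missed 0.05 at that spread. The serine acetyltransferase gene *SERAT1;1* had 306 reads in 35S:SsCBF1-11 and 302 in Col-0 (1.39, 1.18 to 1.63). In the glutathione pair, *GSH1* had a ratio of 1.09 (1.02 to 1.17) and *GSH2* one of 1.03 (0.851 to 1.25). Of all 13 genes of cysteine and glutathione synthesis, 9 had ratios above 1 and 4 below, with a median log2 ratio of 0.11. Over all genes with at least 10 reads, 58.6% had ratios below 1. Some of the 9, such as *GSH2*, had intervals that include 1.

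On the PAPS side, the sulfotransferase genes *SOT16*, *SOT17* and *SOT18*, which complete glucosinolate cores, had ratios of 0.997, 1.02 and 0.993, the widest interval being 0.857 to 1.21. The minor kinase gene *APK4* had 51 reads (5.96 RPKM) in 35S:SsCBF1-11 and 33 reads (2.82 RPKM) in Col-0, a ratio of 2.11 (1.34 to 3.38) that did not pass an adjusted p of 0.001 (0.00992, exact binomial test). *APK3*, the cytosolic isoform, had 27 reads in 35S:SsCBF1-11 and 24 in Col-0 (1.54, 0.855 to 2.79).

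Of the remaining sulfur deficiency genes, *LSU3*, *LSU4*, *GGCT2;1* and *BGLU28* had few reads, at most 24 per library. *SHM7*, a serine hydroxymethyltransferase homolog, had 154 reads in 35S:SsCBF1-11 and 216 in Col-0 (0.975, 0.788 to 1.20). *SDI2* had 62 reads in 35S:SsCBF1-11 and 74 in Col-0 (1.15, 0.804 to 1.63), *LSU3* had 11 and 24 reads in the same order (0.627, 0.277 to 1.33), and *LSU4* had 12 and 13 (1.26, 0.527 to 3.001). *GGCT2;1*, which degrades glutathione, had 3 reads in 35S:SsCBF1-11 and 1 in Col-0 (4.10, 0.329 to 215). *BGLU28*, a beta-glucosidase, had 1 read in 35S:SsCBF1-11 and 9 in Col-0 (0.152, 0.00347 to 1.097). All 6 intervals include 1. Those of *SHM7* and *SDI2* leave out a fold of 2, and those of the genes with few reads take one in, in at least 1 direction.

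Among the regulators, *SLIM1*, the main transcription factor of the sulfur deficiency response, had 72 reads in 35S:SsCBF1-11 and 96 in Col-0 (1.03, 0.745 to 1.41). *MYB28*, which drives aliphatic glucosinolate synthesis, had 180 reads in 35S:SsCBF1-11 and 340 in Col-0 (0.724, 0.601 to 0.870, adjusted p = 0.00592, exact binomial test). *MYB29* and *MYB34* had ratios of 1.09 (0.879 to 1.35) and 0.996 (0.812 to 1.22). *MYB51* had 32 reads in 35S:SsCBF1-11 and 53 in Col-0 (0.826, 0.515 to 1.304), *MYB76* had 7 and 10 in the same order, and *MYB122* had 0 in both. *HY5*, a light-signaling factor that binds *APR* promoters in Arabidopsis, had 87 reads in 35S:SsCBF1-11 and 188 in Col-0 (0.633, 0.485 to 0.820, adjusted p = 0.00519, exact binomial test). At the assumed spread of 0.1 in edgeR neither *HY5* nor *MYB28* passed an adjusted p of 0.05.

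**Figure D5:**
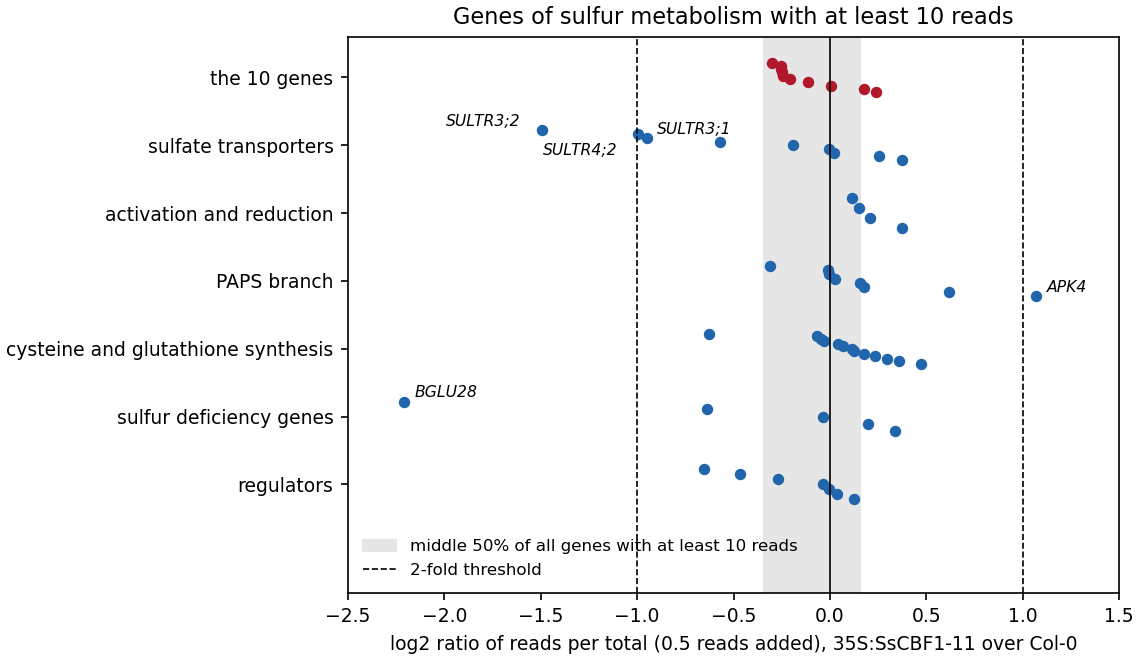
Log2 ratio (0.5 reads added), 35S:SsCBF1-11 over Col-0, of the 10 genes and of the 46 other genes of sulfur metabolism with at least 10 reads, by list. The shaded band is the middle 50% of all genes with at least 10 reads and the dashed lines mark a fold of 2. *BGLU28* and *SULTR3;2*, with at most 16 reads each, lie beyond the lower line and *APK4* beyond the upper one, and none of them was called.

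The promoters were searched because SsCBF1 belongs to a family that binds the CRT/DRE element. In the 1000 bases before each annotated gene start, on both strands, ACCGAC or GCCGAC was found in 22.3% of 27444 protein-coding genes and in 1 of the 10 members, *SDI1*. The SURE core GAGAC, an element of sulfur-responsive promoters, was found in 71.7% of all genes and in 3 members, *APR1*, *APK2* and *SDI1*. The longer form GGAGACA, which contains the core, was found in 9.85% of all genes and in 0 members. A match is a run of letters and not a binding site, and the absence of one says nothing of a factor.

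The *SDI1* promoter is shown because both elements stand in or beside stretches that recur within it. The gene occupies bases 19805437 to 19807853 of chromosome 5, on the minus strand, and its sequence is given 5′ to 3′ on that strand. The 10 bases before the CRT/DRE match occur 4 times, with the 6 bases at the place of the match in capitals. The bases after that place differ between the copies, and copies with changes in the leading 10 bases were not searched. Only the copy 380 bases before the start holds the element, as its reverse complement.
copy at 898 bases (chr5:19808752-19808757): gagtagtcaaGTCGGAaatgggcaca
copy at 631 bases (chr5:19808485-19808490): gagtagtcaaCTCGGAataaatgggt
copy at 380 bases (chr5:19808234-19808239): gagtagtcaaGTCGGCattaatgggt
copy at 209 bases (chr5:19808063-19808068): gagtagtcaaGTCAGAattgatgggt
The SURE core stood at 452, 283 and 18 bases before the start, in capitals as the reverse complement. The last 2 contexts are identical over the 25 bases compared and share 23 of them with the first.
copy at 452 bases (chr5:19808306-19808310): gtggtaagaaGTCTCcaaatgacat
copies at 283 bases (chr5:19808137-19808141) and 18 bases (chr5:19807872-19807876): gtggtaagaaGTCTCcaagtgacgt
With 22 reads in 35S:SsCBF1-11 and 36 in Col-0, *SDI1* had the fewest reads per length of the 10 genes in both libraries.

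With the smaller total of the 35S:SsCBF1-11 library, a gene at a given RPKM rests on fewer reads there. Markers of leaves, such as *RBCS1A* and *RCA*, had from 26899 to 112764 reads in 35S:SsCBF1-11 and from 23547 to 134636 in Col-0, and the 6 root markers had 1 read in 35S:SsCBF1-11 and 4 in Col-0 in all, so that the labelled aerial parts showed leaf markers and next to no root markers. The 4 leaf markers were higher in 35S:SsCBF1-11 (adjusted p under 0.001, folds under 2). The 6 flower and anther markers had 12 reads together in 35S:SsCBF1-11 (range 0 to 6) and 358 in Col-0 (range 15 to 123), and 4 of them were called lower, with *GRP17*, *GRP19* and *ATA27* at 0 in 35S:SsCBF1-11. The part of this difference in organs in the sulfur genes' values was not tested. The study reports that this line flowered later than Col-0 when both were grown in parallel. At equal age, stage and genotype therefore cannot be told apart in any ratio given here. In such pooled tissue, fewer cells of a type and less RNA per cell cannot be told apart.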

How the data were processed

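RNA-seq was done on 1 library each of 35S:SsCBF1-11 and Col-0. The authors' deposited table gives a read count and an RPKM value per library for 33602 genes, beside the authors' own fold, log2 fold and q-value, which were not used. The deposited counts were taken as they stand. The deposited RPKM values equal reads over the listed length and column total in 100% of genes (relative tolerance 1e-06). The submitters' processing notes name CASAVA 1.7 and TAIR10, and no aligner or counting rule is given in the sources used here. Pathway and Gene Ontology files of the authors were not used.

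Both libraries were compared by the exact binomial test described above (pseudocount of 0.5 reads for the fold), adjusted across all genes with reads, since models that estimate a spread between replicates could not be fitted. Intervals are Clopper-Pearson at 95%, and ratios between genes have conditional exact intervals. The procedure was tested on simulated counts with counting error only, so variation between pools was not part of that test. The members and the other gene lists were chosen with earlier results of these data known. The genes named are all 10 members and, of the other lists, those past an adjusted p of 0.001, paralogs of members, *SIR*, *SHM7*, *GGCT2;1*, *SLIM1* and the *MYB* genes, and *HY5*, *BGLU28*, *SERAT1;1*, the *GSH* and *SOT* genes were named after their values were seen. The miR395 scan, the promoter search and the *SDI1* repeats were also chosen after the values were seen. Positions and sequences are from RefSeq's TAIR10.1, to which all 10 members and 32835 of the 33602 loci matched. Alternatives were other scalings, a minimum of 10 reads, a pseudocount of 1, a looser threshold and an assumed spread in edgeR's exact test. Python 3.11.15, numpy 2.4.6, pandas 2.3.3, scipy 1.17.1, matplotlib 3.10.9, R 4.3.3, edgeR 4.0.16 and DESeq2 1.42.0 were used.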

Additional observations from a re-analysis of the deposited data

How the results depend on the processing

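Under the 10 alternatives, 0 members and 0 other pathway genes were called higher or lower, except at an adjusted p under 0.05 with no fold threshold, where 2 members were higher and 2 lower, and 7 other genes higher and 3 lower. All genes then gave 1005 higher and 1603 lower. Where edgeR assumed a coefficient of variation of 0.1, 0.2 or 0.4, 64, 18 or 2 genes were called higher and 82, 21 or 0 lower (119 and 187 without it). At 0.4, 0.874% of genes had an unadjusted p under 0.05. With DESeq2's size factors the calls were 136 higher and 141 lower. Scalings moved all log2 ratios by -0.02 to 0.07, and the sign of 1 member turned, *APK1*, at -0.0178 without the 10 most abundant genes. *APR1* passed an adjusted p of 0.05 at the library totals but not with TMM, DESeq2's size factors or the upper quartile (0.115 to 0.195). The median of the 10 genes ran from -0.25 to -0.15. No paired analysis was possible because there is 1 library per genotype, and for the same reason no replicate could be left out. Depth limits *LSU1* and *SDI1* most.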
